A study of Homo sapiens with 12 samples.

Results

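The genes described here encode chromatin remodellers and enzymes of histone methylation. They were chosen by symbol alone, as the protein-coding genes of GENCODE release 44 outside chromosome Y whose symbol begins with KMT, KDM, SETD, ARID, SMARC or with CHD and a digit. This gave 72 of 19983 genes, with 8 KMT, 19 KDM, 11 SETD, 10 ARID, 13 SMARC and 11 CHD members. A rule on symbols takes names and not functions, so *CHD9NB*, a gene named only for lying next to *CHD9*, is counted among the CHD members, and *SETDB1* and *SETDB2* among the SETD members.

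The data are PAR-CLIP libraries from wildtype HepG2 cells, a human hepatocellular carcinoma line. In PAR-CLIP, cells take up 4-thiouridine, which crosslinks to a bound protein under ultraviolet light, and the RNA that the protein holds is digested, recovered and sequenced. There were 2 libraries each for IGF2BP1, IGF2BP2, METTL1 and WDR4 and 4 for IGF2BP3, of which 2 carry the label bio2. The 3 IGF2BP proteins bind mRNA and were studied as readers of internal N7-methylguanosine in mRNA, and METTL1 with WDR4 forms the methyltransferase that writes it. The 8 IGF2BP libraries and the 4 METTL1 and WDR4 libraries are the sets compared below. A cluster is an interval of one library in which the authors found crosslinked reads, and it was given to a gene by its midpoint on the same strand. The libraries held 4581 to 15701 clusters with no read count, and RNA levels were not used, so a gene without a cluster may be silent, lowly expressed or unbound.

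KMT2A to KMT2D and the SETD1 proteins are the catalytic subunits of COMPASS complexes, which methylate lysine 4 of histone H3 at promoters and enhancers. SETD2 instead methylates lysine 36 in transcribed gene bodies. KDM enzymes take such methyl groups off again. Several SMARC proteins, with ARID1A, ARID1B and ARID2, are subunits of the SWI/SNF complexes, which slide or evict nucleosomes with the energy of ATP. The symbols also cover proteins outside these complexes, such as the ISWI ATPases SMARCA1 and SMARCA5 and the DNA-binding ARID3 proteins. The CHD proteins are a separate group of ATP-dependent remodellers that carry chromodomains. Many of these genes have very long coding sequences, and several, such as *ARID1A*, *ARID2* and *KMT2D*, are recurrently mutated in liver and other cancers.

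The 12 member sites present in the most libraries, one per gene, show what the crosslinked RNA looked like. Each line below gives the central 30 nt of a site on the RNA strand, written as DNA from 5′ to 3′, from the hg38 genome. Capitals mark CATA, CATC or CATT, which are the CAUH motif of IGF2BP proteins (H is any base but G).
ARID1A: tctcctccttccacctcccctccctcCATC
SETD5: cttcccctcacaaaaaattctcccCATCtc
ARID3A: ctgtcccccggcctccagggctcctctccc
CHD9: tcttcttCATCctcttcctccacctcttcc
KDM5C: ccctcttttccttccttcctacccccttct
SETD1A: ctcctcctcctcctcgtcctCATCctcctc
KDM2A: gcgtcacactccctctctgctctcctgtcc
KMT2D: cttggctgtgcctgagagccctggggtagg
SETD1B: cgtctctcctcccctctctctcttctctgt
ARID2: acctaaCATAactcCATCttcttcacCATC
KMT2A: ccctctccCATTccctcttcactccctttt
SMARCD1: cctcttctttcaccctatctcttcccaccc

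The *ARID1A* site, in the 3' UTR at chr1:26780911-26780940 (plus strand), and the *SETD5* site, in the coding sequence at chr3:9473411-9473440 (plus strand), had a cluster in 11 libraries each, all 8 of IGF2BP and 3 of METTL1 and WDR4. No member site was present in all 12. The sites of *ARID3A* (3' UTR, chr19:974436-974465, plus), *CHD9* (coding, chr16:53304529-53304558, plus), *KDM5C* (3' UTR, chrX:53192518-53192547, minus) and *SETD1A* (coding, chr16:30971490-30971519, plus) were each found in 10. The libraries without a cluster there were those labelled bio2. Those of *KDM2A* (3' UTR, chr11:67255150-67255179, plus), *KMT2D* (coding, chr12:49040979-49041008, minus), *SETD1B* (3' UTR, chr12:121830522-121830551, plus) and *ARID2* (coding, chr12:45851018-45851047, plus) were found in 9. Both bio2 libraries also lacked the *KDM2A* and *SETD1B* sites. The *KMT2A* (3' UTR, chr11:118522866-118522895, plus) and *SMARCD1* (3' UTR, chr12:50099163-50099192, plus) sites were found in 8. Most of the letters are C and T, and the *KMT2D* site is the exception. The middle 20 nt of the *CHD9* site occur 18 times in hg38 and those of the *SETD1A* site 3 times, so reads there may have come from other loci. The other 10 have a single copy.

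The member transcripts were bound more often than protein-coding genes in general. Of the 72 members, 44 had an exonic cluster in at least 1 library, 10 more had intronic clusters only, and 18 had none. In all 12 libraries an exonic cluster was found in *ARID3A*, *KMT2D*, *ARID1A*, *KDM5C* and *SETD5*, which is 6.94% of the members, against 1.18% of all genes. No exonic cluster was found in 38.9% of the members and in 68.9% of all genes. The coding sequences of the members are longer, with a median of 3674 nt against 1342 nt in other genes, and their 3' UTRs are too, with 2345.5 nt against 1322 nt, so these percentages are not corrected for length.

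A gene was counted as reproducibly bound by a protein when at least 2 libraries of that protein had an exonic cluster in it. IGF2BP1 reproducibly bound 28 members (38.9%), where 16.7% of all genes passed the same rule. For IGF2BP2 it was 15 members (20.8%) against 6.43% of all genes, and for IGF2BP3 26 members (36.1%) against 14.7%. METTL1 reproducibly bound 13 members (18.1%) against 4.35% and WDR4 12 (16.7%) against 4.58%. The share of members was above that of all genes for each of the 5 proteins. IGF2BP3 had 4 libraries in which to pass, and without the bio2 libraries it bound 25 members, where 10.4% of all genes passed. Counts for different proteins share the same cells and differ in library size, and they were not tested against each other.

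**Figure D1:**
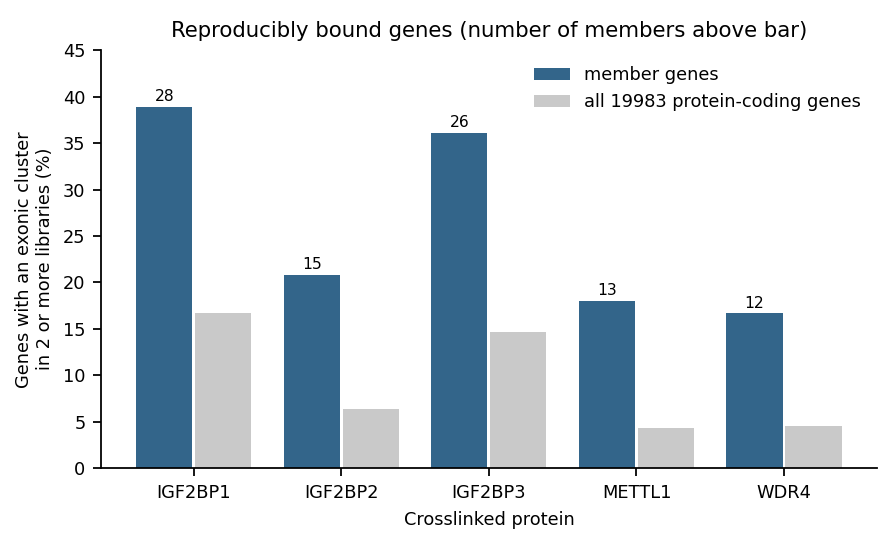
Percentage of genes (y axis) with an exonic cluster in 2 or more libraries of each crosslinked protein (x axis), for the 72 chromatin genes (dark bars, number of genes above) and for all 19983 protein-coding genes (light bars). The dark bar is the higher one for each protein, from 16.7% for WDR4 to 38.9% for IGF2BP1.

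*ARID3A*, a DNA-binding protein with an AT-rich interaction domain, had more clusters than any other member. Its exonic clusters numbered 12 and 12 in IGF2BP1, 9 and 9 in IGF2BP2, 7 and 5 in IGF2BP3, 3 and 3 in IGF2BP3 bio2, 10 and 9 in METTL1 and 7 and 7 in WDR4. The METTL1 and WDR4 libraries thus lay inside the range of the IGF2BP libraries, and bio2 was lowest. The clusters formed 20 exonic sites, 16 of them spread along the 3' UTR, and the gene alone held 79 of the 251 3' UTR clusters of all members (31.5%). Per kb of 3' UTR over all transcripts, this came to 20.4 clusters summed over the 12 libraries, against 8.19 in *SMARCD1*, 8.14 in *ARID1A* and 7.32 in *KDM5C*. These values depend on the length used. The 3' UTR of *ARID3A* has 3877 nt over all transcripts and in the canonical mRNA alike. That of *KDM5C* has 2186 nt over all transcripts but 812 nt in the canonical mRNA, where all its 3' UTR sites lie, so its value understates the density there. With position 0 at the end of the coding sequence, the sites at -29 and 473 nt were present in all 8 IGF2BP libraries and in 2 and 1 of the METTL1 and WDR4 libraries. The sites at 907, 1598, 2389 and 3566 nt were present in all 4 METTL1 and WDR4 libraries and in 5 or 6 of the 8 IGF2BP libraries, so that both sets of proteins were found at them. Neither bio2 library had a cluster at any of these sites.

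*KMT2D*, the histone H3 lysine 4 methyltransferase of enhancers, was the second. Its exonic clusters numbered 10 and 9 in IGF2BP1, 5 and 6 in IGF2BP2, 5 and 4 in IGF2BP3, 1 and 2 in IGF2BP3 bio2, 6 and 6 in METTL1 and 4 and 2 in WDR4. Here the coding sequence took most of the clusters, with 46 of the 330 coding clusters of all members (13.9%), at 2.75 per kb. On the same scale, the coding site at -13788 nt was present in all 8 IGF2BP libraries and in 1 of the other 4, and the site at -13023 nt was found in 5 IGF2BP libraries and in no METTL1 or WDR4 library. Its 3' UTR had 6 sites with 14 clusters, of which 8 were from METTL1 and WDR4 libraries.

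**Figure D2:**
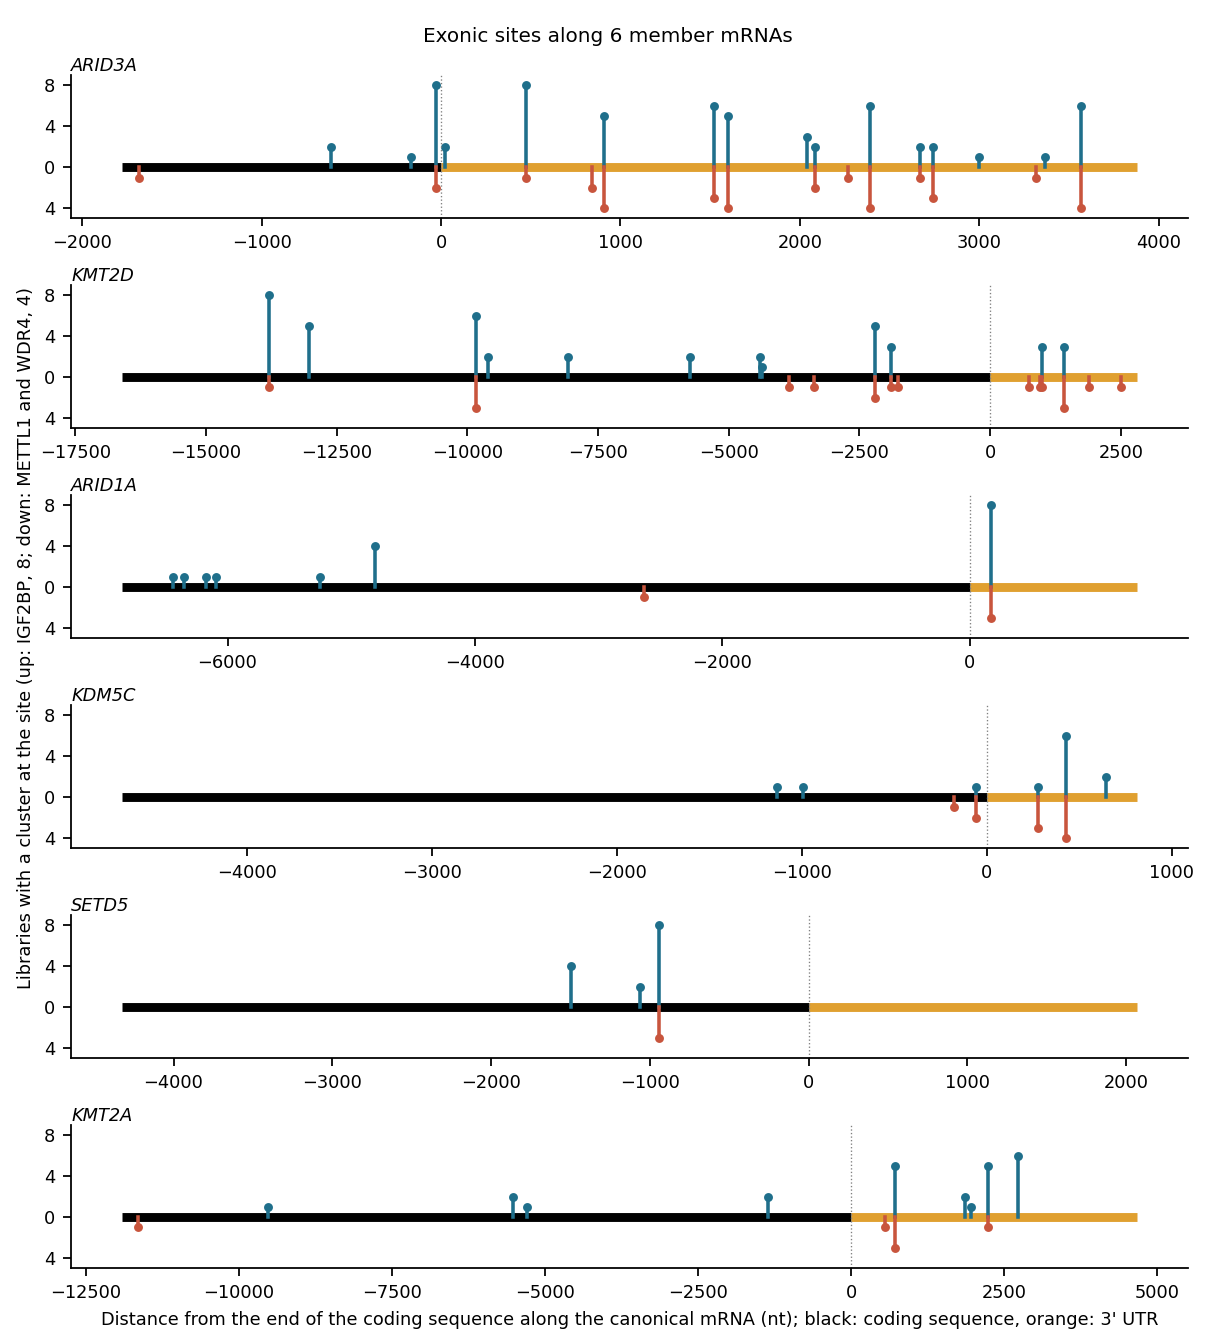
Exonic sites along the canonical mRNA of 6 members, with distance from the end of the coding sequence in nt (x axis) and the number of IGF2BP libraries (upward, of 8) and of METTL1 and WDR4 libraries (downward, of 4) that have a cluster at each site (y axis). Black marks the coding sequence and orange the 3' UTR, and sites in exons outside the canonical mRNA are left out. *ARID3A* has 16 sites in its 3' UTR and *SETD5* has none, whereas most *KMT2D* sites lie in the coding sequence.

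Among the other KMT members, *KMT2A* had exonic clusters in 11 libraries, with 7 and 6 in IGF2BP1 and 0 to 3 elsewhere. Its clusters lay mostly in the 3' UTR (24, against 7 in the coding sequence), and a 3' UTR site 2718 nt after the coding sequence was present in 6 IGF2BP libraries and in none of METTL1 and WDR4. *KMT2E*, which carries a SET domain but is not known to be an active methyltransferase, had 25 coding clusters and 1 in the 3' UTR. Its exonic clusters numbered 5 and 3 in IGF2BP1, 1 and 2 in IGF2BP2, 4 and 5 in IGF2BP3, 3 and 2 in IGF2BP3 bio2, 0 and 1 in METTL1 and 0 and 0 in WDR4. Every IGF2BP library had at least as many as any METTL1 or WDR4 library. *KMT2C* had 8 coding clusters from 5 IGF2BP libraries and none from METTL1 or WDR4, and *KMT2B* had 4 coding clusters over 3 libraries. In *KMT5B*, a methyltransferase of histone H4 lysine 20, 3 exonic clusters were found, and *KMT5A* and *KMT5C*, which act on the same residue, had no cluster at all.

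The SETD members were bound in the coding sequence as well, with 64 coding clusters and 10 in 3' UTRs, all 10 of them at 1 site of *SETD1B*. *SETD5* had exonic clusters in every library, from 1 in each bio2 library to 6 in IGF2BP1 replicate 2, and 23 of them were coding. Its 3' UTRs, 5482 nt over all transcripts, held no cluster in any library. A further *SETD5* site, in an exon outside the protein-coding transcripts of the gene (chr3:9472681-9472738), was present in all 4 METTL1 and WDR4 libraries and in no IGF2BP library, and its middle 20 nt occur 3 times in hg38. *SETD1A*, at 4.88 coding clusters per kb, had the highest coding value of the SETD members, with 25 clusters in 10 libraries. *SETD1B*, its paralogue, had 12 coding clusters. *SETD2*, the H3 lysine 36 methyltransferase, had exonic clusters in 4 libraries and 17 intronic ones. *SETDB1*, an H3 lysine 9 methyltransferase, had 1 cluster, in the 5' UTR, and no cluster was found in *SETD4*, *SETD6*, *SETD7*, *SETD9* and *SETDB2*.

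**Figure D3:**
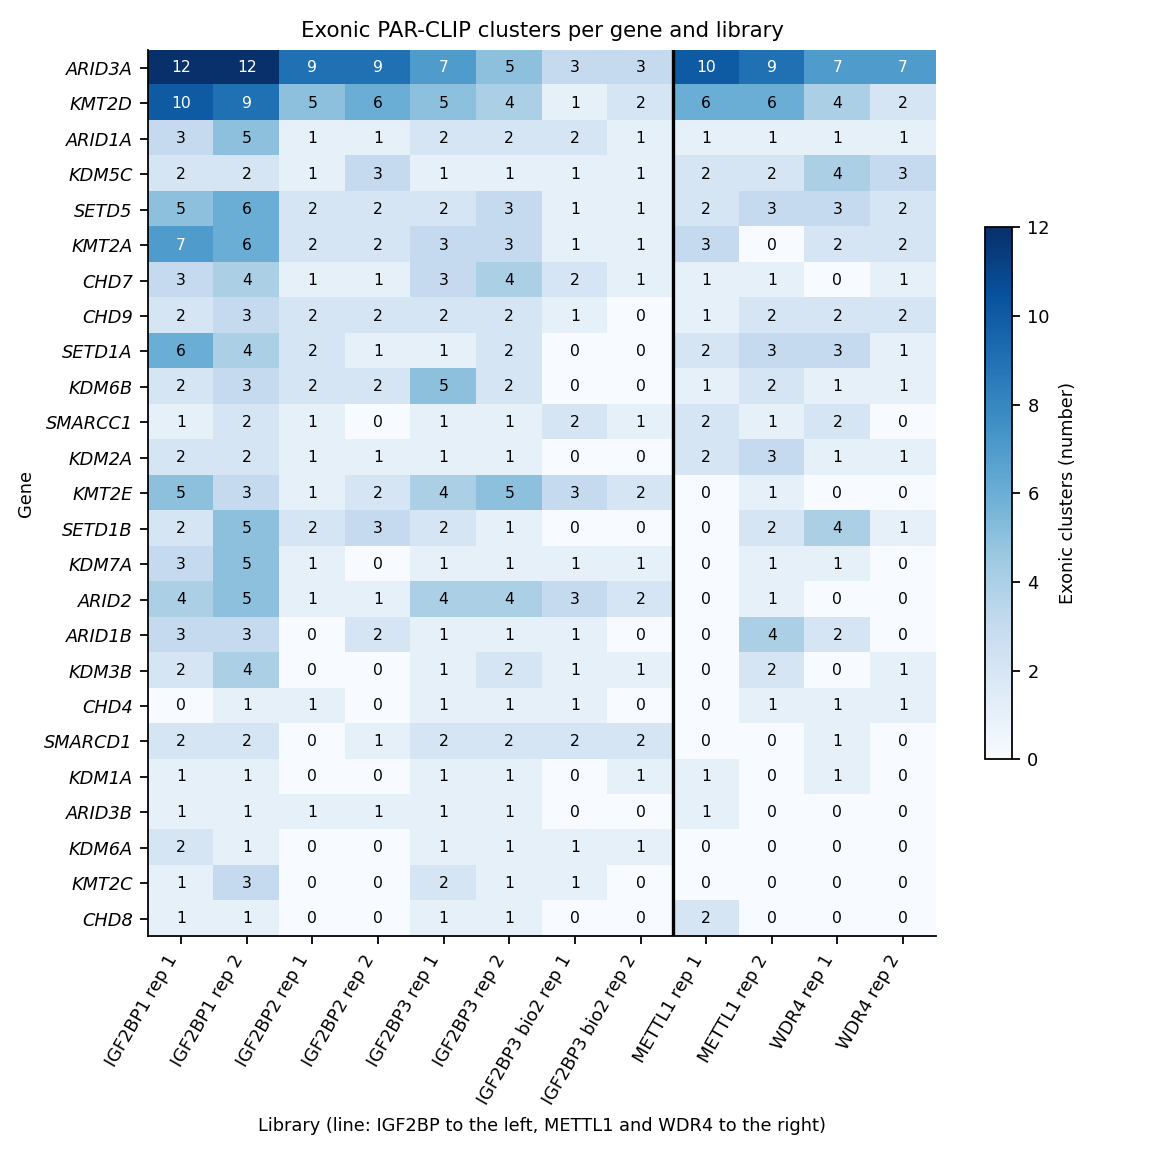
Number of exonic clusters (cell value and colour) of the 25 members found in the most libraries (y axis) in each of the 12 libraries (x axis), with IGF2BP libraries left of the line and METTL1 and WDR4 libraries right of it. *ARID3A* has at least 3 clusters in every library, *KMT2D* has 1 to 10, and *KDM6A* and *KMT2C* have 0 in each METTL1 and WDR4 library.

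Of the demethylases, *KDM5C*, which acts on H3 lysine 4, had exonic clusters in all 12 libraries, with 4 and 3 in WDR4, 2 and 2 in METTL1 and 1 to 3 in each IGF2BP library. Its most widely shared site lay 430 nt after the coding sequence of the canonical transcript. It was present in 6 IGF2BP libraries, none of them bio2, and all 4 of METTL1 and WDR4. *KDM2A*, an H3 lysine 36 demethylase, had 15 clusters in the 3' UTR and none in the coding sequence. *KDM6B*, an H3 lysine 27 demethylase, had 14 coding and 6 3' UTR clusters in 10 libraries, while its paralogue *KDM6A* had 7 coding clusters from 6 IGF2BP libraries and none from METTL1 or WDR4. *KDM7A* had 12 clusters in its 3' UTR, 7 of them in IGF2BP1. *KDM3B*, an H3 lysine 9 demethylase, had 12 coding clusters, and *KDM1A* (LSD1) had 5, all at 1 site found in IGF2BP libraries alone. *KDM1A* also had 2 clusters in its 3' UTR, 1 from METTL1 and 1 from WDR4. *KDM4D*, *KDM4E*, *KDM4F*, *KDM5B* and *KDM8* had no cluster.

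The SWI/SNF subunits *ARID1A*, *ARID1B* and *ARID2* had 45 coding clusters between them, against 10 in the 13 SMARC genes, not all of which encode SWI/SNF subunits. *ARID1A*, the subunit that defines the canonical BAF complex, had 1 to 5 exonic clusters in each library, and 11 of its 21 came from the single 3' UTR site shown above, 169 nt after the coding sequence. *ARID1B*, its paralogue, had 12 coding and 4 3' UTR clusters in 8 libraries. *ARID2*, which defines the PBAF complex, had 23 coding clusters at 4.16 per kb and none in its 3' UTR. Its exonic clusters numbered 4 and 5 in IGF2BP1, 1 and 1 in IGF2BP2, 4 and 4 in IGF2BP3, 3 and 2 in IGF2BP3 bio2, 0 and 1 in METTL1 and 0 and 0 in WDR4, so that the IGF2BP libraries reached or exceeded the highest METTL1 or WDR4 library. *ARID3B*, a paralogue of *ARID3A*, had 7 exonic clusters, all in the 3' UTR. *ARID3C* had no cluster.

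The SMARC members held 60 clusters, fewer than any other family, and 32 of them were in 3' UTRs. *SMARCD1* gave 14 of these at 2 sites, with 2 in every IGF2BP1, IGF2BP3 and bio2 library, 0 and 1 in IGF2BP2, 0 and 0 in METTL1 and 1 and 0 in WDR4. *SMARCC1*, a core scaffold subunit, had exonic clusters in 10 libraries, with 9 in the 3' UTR and 4 coding. *SMARCE1* had 5 clusters at 1 3' UTR site, which was reproducible for METTL1 alone. The catalytic ATPases had few clusters. *SMARCA4* (BRG1) had 3 coding clusters over 2 libraries, and *SMARCA2* (BRM) had no cluster, nor had *SMARCAL1* and *SMARCD3*.

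The CHD members had 50 coding clusters, 11 in 3' UTRs and 54 in introns. *CHD7* had 18 coding and 4 3' UTR clusters in 11 libraries. *CHD9*, in 11 libraries, had 14 coding clusters, the most widely shared of them at the multicopy site above. *CHD4*, the ATPase of the NuRD complex, had 8 coding clusters in 8 libraries. All of them lie where the annotation also has an exon of another protein-coding gene, which has no symbol, so the clusters cannot be assigned to *CHD4* alone. *CHD8* had 6 coding clusters in 5 libraries, and *CHD3* and *CHD5* had none.

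**Figure D4:**
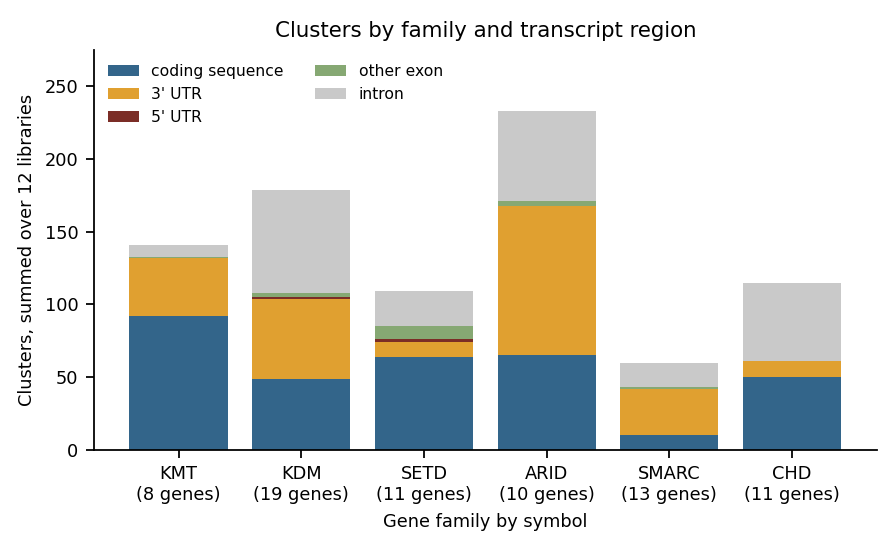
Clusters summed over the 12 libraries (y axis) in each gene family (x axis, with its number of genes), split by transcript region. KMT and SETD clusters lie mainly in coding sequence and CHD clusters in coding sequence and introns, whereas the ARID family has 103 3' UTR clusters, of which *ARID3A* holds 79.

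Member clusters fell on other transcript regions than those of other genes. Coding sequence held 50.7% ± 9.89 (SD, n = 8) of the member clusters in the IGF2BP libraries, where other genes had 18.9% ± 7.11. In the METTL1 and WDR4 libraries it was 22.6% ± 7.80 (SD, n = 4) and 10.3% ± 2.75. The members' coding share was above that of other genes in every library. It ranged from 39.2% to 70.6% in the IGF2BP libraries and from 11.6% to 29.7% in the METTL1 and WDR4 libraries, and the sets did not overlap. With 31 to 127 member clusters in a library, a single value is imprecise. The lowest share, in WDR4 replicate 2, had a 95% Wilson interval of 5.99% to 21.2% and the highest, in IGF2BP3 bio2 replicate 1, one of 53.8% to 83.2%, for counting error only.

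The difference in the coding share between the sets was 28.1 percentage points (exact permutation test, two-sided, on all 495 ways to divide the libraries into 8 and 4, p = 0.00202, the smallest the design allows, adjusted p = 0.00505 over 10 tests). In percentage points, the excess of the members over other genes was itself larger in the IGF2BP libraries, at 31.8 ± 5.98 against 12.3 ± 5.37. The difference was 19.6 (exact permutation p = 0.00202, adjusted 0.00505). Per kb of coding sequence, by contrast, the mean ratio of members to other genes was nearly equal, at 3.47 ± 1.18 and 3.55 ± 0.856 (not tested). The first mean includes the bio2 libraries, at 1.92 and 1.43, and the other IGF2BP libraries had 3.53 to 4.60. The METTL1 and WDR4 libraries had 2.31 to 4.15. Among exonic clusters alone, the coding share was 61.0% ± 11.2 in the IGF2BP libraries and 40.4% ± 8.68 in the METTL1 and WDR4 libraries (exact p = 0.0121, adjusted 0.0236). For other genes these exonic shares were 24.1% ± 7.85 and 22.1% ± 3.74. With the protein as the unit, each of these tested differences kept its direction at exact p = 0.1, 0.1 and 0.2 in the order given. The smallest p the design allows there is 0.1. The study's methods describe plates seeded for each replicate, while the labels do not say which libraries of a protein were separate cultures. The p-values may therefore measure technical spread alone.

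Densities take the length of the transcript regions into account. Per kb of coding sequence, the members had 3.47 ± 1.18 times as many clusters as other genes in the IGF2BP libraries and 3.55 ± 0.856 times as many in the METTL1 and WDR4 libraries. The lowest ratios, 1.92 and 1.43, were in the bio2 libraries. Per kb of 3' UTR, the ratio was 1.12 ± 0.456 in the IGF2BP libraries and 2.45 ± 0.502 in the METTL1 and WDR4 libraries. The bio2 libraries lay below 1 here, at 0.475 and 0.596, and the other IGF2BP libraries had 0.974 to 1.86. *ARID3A* alone held 29.5% of the member 3' UTR clusters in the IGF2BP libraries and 35.3% in the METTL1 and WDR4 libraries. The 3' UTR ratios were not computed without that gene. The members hold 0.871% of all coding sequence and 0.550% of all 3' UTR.

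In 3' UTRs, the members had fewer of their clusters than other genes in the IGF2BP libraries, at 32.1% ± 10.9 against 54.6% ± 4.04. In the METTL1 and WDR4 libraries the shares were 27.8% ± 5.00 and 29.5% ± 1.20. The gap between members and other genes was -22.5 ± 7.82 percentage points in the IGF2BP libraries and -1.68 ± 4.66 in the others (difference -20.8, exact p = 0.00202, adjusted 0.00505). The 3' UTR share of the members itself did not pass between the sets (difference 4.30 percentage points, exact p = 0.491, adjusted 0.503). Since *ARID3A* holds so many 3' UTR clusters, the shares were computed again without it. The members' 3' UTR share was then 26.2% ± 7.64 and 20.2% ± 2.21, and the gap to other genes -28.3 ± 5.14 and -9.24 ± 2.13 percentage points.

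**Figure D5:**
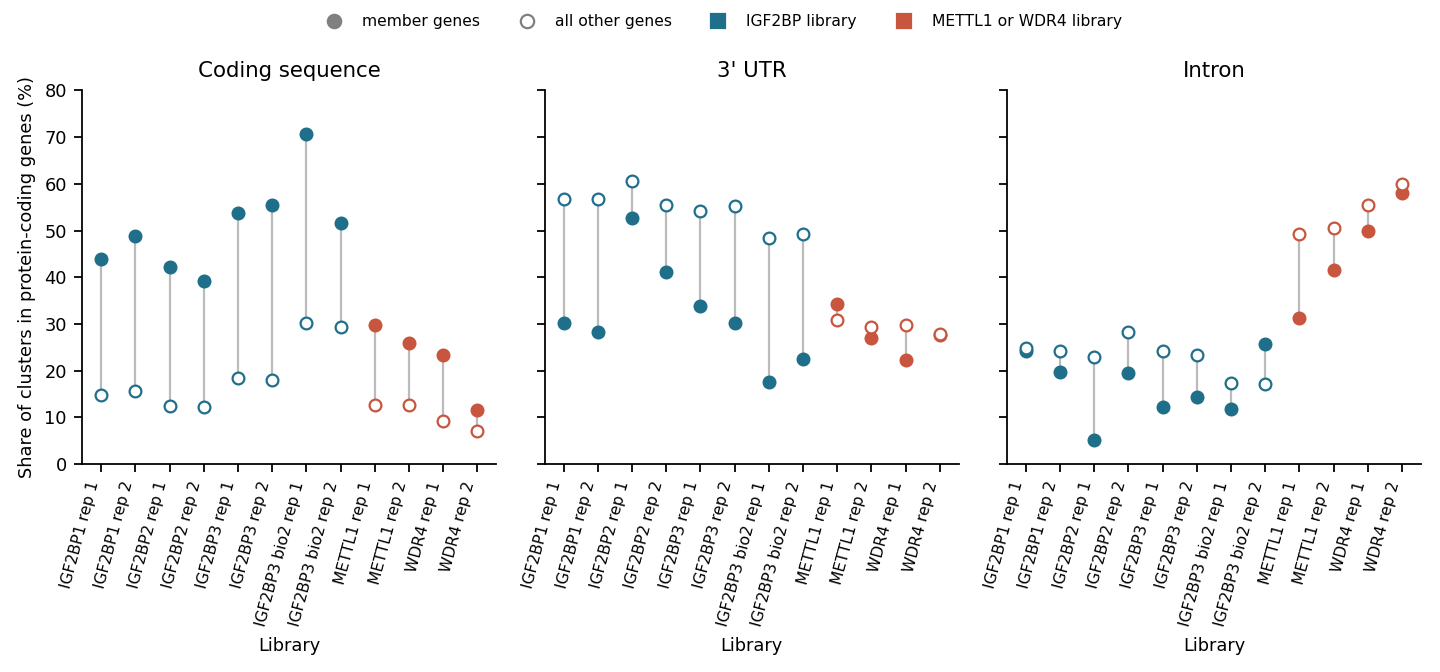
Share of clusters in protein-coding genes (y axis, %) that lie in coding sequence, 3' UTR or intron, for the 72 members (filled points) and all other genes (open points) in each library (x axis). Filled points lie above open ones in every library for coding sequence, and below them in all 8 IGF2BP libraries for 3' UTRs.

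Introns held 16.6% ± 6.93 of the member clusters in the IGF2BP libraries and 45.2% ± 11.5 in the METTL1 and WDR4 libraries (difference -28.6 percentage points, exact p = 0.00202, adjusted 0.00505). Other genes had 22.7% ± 3.78 and 53.8% ± 4.94, so that the same order held outside the members. Intronic member sites were shared far less than exonic ones. Of 172 intronic sites, 80.8% were found in 1 library, against 43.7% of the 199 exonic sites, and 40.7% had a single-copy centre, against 84.9%. Other genes were alike in this, with 75.1% of intronic and 44.9% of exonic sites in 1 library and single-copy centres in 47.4% and 72.1%. In the 5' UTR, 3 clusters were found in all, in *KDM6B*, *SETD2* and *SETDB1*, each in 1 METTL1 library. They made up 1.56% and 2.25% of the member clusters of the METTL1 libraries. In other genes 5' UTRs held 5.10% and 5.00% in METTL1, 2.98% and 2.64% in WDR4 and 1.37% to 2.46% in the IGF2BP libraries.

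The members made up a smaller part of the clusters in the IGF2BP libraries. They held 1.03% ± 0.221 (SD, n = 8) of a library's clusters in protein-coding genes, against 1.42% ± 0.150 (n = 4) in the METTL1 and WDR4 libraries (difference -0.389 percentage points, exact p = 0.0141, adjusted 0.0236). The values were 0.714% and 0.713% in the bio2 libraries and 0.960% to 1.31% in the other 6 IGF2BP libraries, so that the sets overlapped slightly with METTL1 and WDR4, which ranged from 1.21% to 1.55%. The share of members with an exonic cluster was 32.6% ± 8.17 in the IGF2BP libraries and 29.2% ± 4.09 in the others. Over the same share of all genes, the log2 ratio was 1.32 ± 0.28 and 1.73 ± 0.16 (difference -0.40, exact p = 0.0283, adjusted 0.0354). This last call was lost when any of 8 single libraries was left out, and without both bio2 libraries the difference was -0.32 (exact p = 0.0714).

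Of the 199 exonic member sites, 146 had an IGF2BP cluster and 108 a METTL1 or WDR4 cluster. In 55 both were found, which is 37.7% of the IGF2BP sites and 50.9% of the METTL1 and WDR4 sites. In other genes these shares were 25.3% and 49.7%. Within a protein, 58.8% of the IGF2BP1 sites, 54.0% of the IGF2BP2 sites and 62.2% of the IGF2BP3 sites in members were found in at least 2 libraries, but 24.7% for METTL1 and 23.7% for WDR4. Other genes had 60.5%, 40.8%, 62.8%, 18.7% and 21.8%, in the same order. IGF2BP3 had 4 libraries in which to reach 2 and each other protein had 2, so its share is not comparable with theirs.

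Some exonic sites belonged to one set of libraries only. In at least 4 IGF2BP libraries and in no METTL1 or WDR4 library there were 19 sites in 13 genes, 14 of them coding and 5 in 3' UTRs. This is 9.55% of the exonic member sites, against 13.1% of those in other genes. In at least 2 METTL1 or WDR4 libraries and in no IGF2BP library there were 3, in *ARID3A*, *KDM2A* and *SETD5*, which is 1.51% against 1.33%. Since there are 8 libraries of the one kind and 4 of the other, these counts are not comparable as rates. The 5 sites found in 6 IGF2BP libraries alone are shown first, and the 2 found in at least 3 METTL1 and WDR4 libraries alone after them. They were picked after the values were seen, and capitals again mark CATA, CATC or CATT.
ARID3B: tcacccccactcccacacaCATAcacacac
KDM6A: tgctctcaatcacctctcctctcacactgc
KMT2A: cctcctcactctctaccaaccctaaaccct
KMT2E: ttcaccttCATCtCATTcaaatcaCATAcc
SMARCD1: tgactCATTCATTcactcactccaccctgc
SETD5: tctctctccctctctctctccacctacctc
KDM2A: ttgcctcccactgactgcccttttccatgt

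These lie at chr15:74597491-74597520 (plus, 3' UTR), chrX:45069737-45069766 (plus, coding), chr11:118524873-118524902 (plus, 3' UTR), chr7:105110523-105110552 (plus, coding), chr12:50099829-50099858 (plus, 3' UTR), chr3:9472691-9472720 (plus, noncoding exon) and chr11:67255868-67255897 (plus, 3' UTR), in the order printed. *KMT2E* and *SMARCD1* hold 3 and 2 CAUH motifs, *ARID3B* holds 1, and *KDM6A*, *KMT2A* and both sites of METTL1 and WDR4 hold none. The cluster centres occur in hg38 a median of 2 times at *ARID3B*, 1.5 at *SMARCD1* and 3 at *SETD5*. Reads at those sites may have come from other loci, and the remaining sites have a single copy.

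Over all member exonic clusters, 53.9% ± 15.6 of the central 30-nt windows held CAUH in the IGF2BP libraries and 31.6% ± 3.46 in the METTL1 and WDR4 libraries (difference 22.2 percentage points, exact p = 0.0182, adjusted 0.0260). With clusters of at least the median width alone the difference was 10.6 (exact p = 0.131). For a bipartite element, GGCA or CGGC at a spacing before CA in the widened cluster, it was -5.61 (exact p = 0.0384), in the opposite direction. Windows of the same length in other genes held CAUH in 51.7% ± 13.1 and 28.9% ± 2.14, so that the members were close to other genes in both sets. The highest member shares were in the bio2 libraries, 73.3% and 78.3%, and the lowest IGF2BP shares in IGF2BP2, 38.9% and 34.1%. By site, 52.7% of the 91 exonic member sites of IGF2BP libraries alone held the motif, 41.8% of the 55 sites of both sets and 18.9% of the 53 sites of METTL1 and WDR4 libraries alone. A match is a match of letters only, searched on the RNA strand.

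The C content of the member windows stood above that of other genes in every library but WDR4 replicate 2. In each of the 8 IGF2BP libraries the C content of the windows was higher in members, 40.6% to 45.2%, than in other genes, 34.8% to 38.1%, and the T content was lower, 24.5% to 29.3% against 27.7% to 32.4%. In METTL1 and WDR4 the C content was 34.4% to 39.7% in members and 34.7% to 36.4% in other genes, and in WDR4 replicate 2 the members were lower, at 34.4% against 34.7%. Across sites, C and T together made up 70.6% of the bases at the 36 exonic sites found in 6 or more libraries and 60.1% at the 87 sites found in 1 library. These are descriptions. Crosslinking needs a U in the RNA and RNase T1 cuts after G, so both bases are shaped by the assay.

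Within 3' UTRs, the median position of member clusters (0 at the stop codon, 1 at the end of the transcript) was 0.349 ± 0.0951 in the IGF2BP libraries and 0.388 ± 0.0843 in the METTL1 and WDR4 libraries, and the difference of -0.038 did not pass (exact p = 0.503, adjusted 0.503).

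Genes of related chromatin complexes, taken from lists of other symbols, were bound to different extents. Of 11 histone acetyltransferases, IGF2BP1 reproducibly bound 7 (63.6%), IGF2BP2 2 (18.2%), IGF2BP3 5 (45.5%), METTL1 1 (9.09%) and WDR4 2 (18.2%). *KAT6A*, *NAA60* and *EP300* were in the most libraries. Of 12 NuRD subunits, IGF2BP1 bound 6 (50.0%), IGF2BP2, IGF2BP3 and WDR4 2 each (16.7%) and METTL1 1 (8.33%), led by *GATAD2B*, *MTA2* and *GATAD2A*. Of 25 partners in ISWI and INO80 complexes, IGF2BP1 and IGF2BP3 bound 8 each, METTL1 6, IGF2BP2 5 and WDR4 3, and *BAZ2A* and *POLE3* had an exonic cluster in all 12 libraries. Of 7 other histone demethylases, IGF2BP1 bound 4 (57.1%), IGF2BP2 and IGF2BP3 3 each (42.9%) and METTL1 and WDR4 1 each (14.3%), led by *JMJD1C*. These counts can be read against the shares of all genes given above, from 4.35% to 16.7%.

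Of 13 COMPASS partners, IGF2BP1 bound 3 (23.1%), IGF2BP3 4 (30.8%), WDR4 2 (15.4%) and IGF2BP2 and METTL1 1 each (7.69%). *HCFC1*, a subunit shared by the SETD1 and KMT2A complexes, was the only one in all 12 libraries. Of 31 Polycomb genes, IGF2BP1 and IGF2BP3 bound 7 each (22.6%), METTL1 5 (16.1%) and IGF2BP2 and WDR4 2 each (6.45%), with *PCGF5* in all 12 libraries. Of 26 other histone methyltransferases, IGF2BP1 bound 5 (19.2%), IGF2BP3 4 (15.4%), METTL1 and WDR4 3 each (11.5%) and IGF2BP2 2 (7.69%), with *ASH1L* in all 12. Of 19 SWI/SNF subunits with other symbols, IGF2BP1 bound 3 (15.8%), IGF2BP3 4 (21.1%), IGF2BP2 and METTL1 2 each (10.5%) and WDR4 1 (5.26%). Of 18 histone deacetylases and sirtuins, IGF2BP1 bound 2 (11.1%), IGF2BP2 bound 0 and the other 3 proteins 1 each (5.56%). Below the share of all genes were SWI/SNF subunits for IGF2BP1 (15.8% against 16.7%) and deacetylases and sirtuins for IGF2BP1, IGF2BP2 and IGF2BP3. The latter had 11.1%, 0% and 5.56%, against 16.7%, 6.43% and 14.7%. All other shares were above, but many rest on 1 or 2 genes and several were above only just. Among these were Polycomb genes (6.45%), COMPASS partners and other methyltransferases (7.69% each) for IGF2BP2, against 6.43%. Other methyltransferases had 19.2% against 16.7% for IGF2BP1 and 15.4% against 14.7% for IGF2BP3, where NuRD subunits had 16.7%. For WDR4, deacetylases and sirtuins had 5.56% and SWI/SNF subunits 5.26%, against 4.58%. For METTL1, deacetylases and sirtuins had 5.56% against 4.35%. The lists were not tested against each other.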

How the data were processed

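The PAR-CLIP files hold values of another kind than counts. In each, the authors deposited the genomic intervals of the clusters of 1 library, with no score or read number, so that depth is unknown. Per the study's methods, reads were filtered, clipped and collapsed with the FASTX toolkit, mapped with bowtie and called with PARalyzer. The labels give hg38, and tool versions are not given in the sources used here. Multiple mapping was allowed, so repeated sequence could hold clusters of other loci.

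Midpoints were set against GENCODE release 44 on the same strand, each gene by its own transcripts, and a midpoint in several regions counted as coding sequence first, then 3' UTR, 5' UTR, another exon or an intron. Clusters overlapping by 1 nt across libraries were merged into sites. Copy number was counted for the central 20 nt in hg38. Shares were compared between 8 and 4 libraries by two-sided exact permutation tests (threshold 0.05), with Benjamini-Hochberg adjustment over 10 tests, of which 2 were added after the data were seen. Scripts ran in Python 3.11.15 with numpy 2.4.6 and scipy 1.17.1 and were tested on simulated data. The members and lists were chosen with earlier results of these data known. Named genes were the 25 members in the most libraries, the 3 with the most reproducible sites per protein, those with a reproducible METTL1 or WDR4 site, and those without clusters where a family had 5 or fewer. Others were chosen after their values were seen. One of the lists is not reported here.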

Additional observations from a re-analysis of the deposited data

Results flagged for a closer look

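The departure of the members from other genes differed between the IGF2BP libraries and the METTL1 and WDR4 libraries by a test of the difference itself. For 3' UTRs, the gap between members and other genes differed by -20.8 percentage points (IGF2BP minus the other libraries), and for coding sequence by 19.6 (both exact permutation p = 0.00202, adjusted 0.00505, over 8 and 4 libraries). Per kb of coding sequence, the mean ratio of members to other genes was nearly equal, at 3.47 ± 1.18 (IGF2BP) and 3.55 ± 0.856 (not tested). The IGF2BP mean includes the bio2 libraries, at 1.92 and 1.43, where the other IGF2BP libraries had 3.53 to 4.60. All 8 IGF2BP libraries had a 3' UTR gap below 0 and all 12 libraries a coding gap above 0. The bio2 libraries, with the fewest member clusters, were among them, and the part played by transcript levels was not tested. By Dixon's criterion, no single library lay apart from the others of its set in the values compared. The criterion does not test pairs, and the bio2 libraries were the lowest of the 8 IGF2BP libraries in member share and the highest in CAUH.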

How the results depend on the processing

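Of 263 alternative values, 229 kept their direction and their side of the threshold (or stayed within 1.5 times, for counts). With the protein as the unit, no exact test can fall below p = 0.1, and each call was lost with its direction kept, at p = 0.2 for the 3' UTR gap, CAUH and the coding share of exonic clusters and 0.1 for the others. The member share differed by -0.376, the coding share by 25.7, the intron share by -28.4, the 3' UTR gap to other genes by -19.8, CAUH by 18.2, the coding gap to other genes by 18.9 and the coding share of exonic clusters by 17.9 percentage points, and the log2 ratio of bound members by -0.41. Leaving out 1 library at a time moved that log2 ratio between -0.47 and -0.34, and the call was lost without either IGF2BP1, METTL1 or bio2 library, IGF2BP2 replicate 2 or WDR4 replicate 1. Without both bio2 libraries it was -0.32. With clusters of at least the median width alone, it was -0.35, CAUH was 10.6 (exact p = 0.131), the 3' UTR position turned to 0.0092, and IGF2BP1, IGF2BP2, IGF2BP3, METTL1 and WDR4 reproducibly bound 13, 7, 17, 8 and 6 members (18.1%, 9.72%, 23.6%, 11.1% and 8.33%, against 7.92%, 3.17%, 8.10%, 2.07% and 2.39% of all genes). From 3' UTR clusters alone, IGF2BP1, IGF2BP3, METTL1 and WDR4 bound 15, 12, 6 and 7 (20.8%, 16.7%, 8.33% and 9.72%, against 12.9%, 10.1%, 2.80% and 3.30%). In at least 1 library, METTL1 bound 32 and WDR4 27 (44.4% and 37.5%, against 13.1% and 13.2%). The 3' UTR share turned to -2.68 with single-copy clusters, the 3' UTR position to 0.033 without *ARID3A*, an alternative added after the data were seen, and the bipartite element of GGCA or CGGC before CA, used in place of CAUH, gave -5.61 (exact p = 0.0384). The causes were not tested. With the replicate block (permuting within replicate number), the coding share again differed by 28.1 percentage points (exact p = 0.00444), and no call changed. The labels do not pair the numbers, and differences between replicates correlated at -0.127 to 0.113 between the 15 pairs of groups over genes, so they were not treated as pairs.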

Other observations

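*KDM4B*, an H3 lysine 9 demethylase, had 27 clusters at 14 intronic sites and none in its exons. They numbered 6 and 5 in IGF2BP1, 0 and 1 in IGF2BP2, 3 and 3 in IGF2BP3, 2 and 4 in METTL1, 1 and 2 in WDR4 and 0 in both bio2 libraries. Of its sites, 2 were present in 4 IGF2BP libraries and in no METTL1 or WDR4 library, and the middle 20 nt of these occur 3 and 4 times in hg38.

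The intronic member site found in the most libraries lay in *KDM6A* at chrX:45017414-45017488, with clusters in 3 IGF2BP libraries and all 4 METTL1 and WDR4 libraries and a single-copy centre. *KDM6A* exons, by contrast, had clusters from IGF2BP libraries alone. In *CHD4*, an intronic site of both bio2 libraries overlapped *SCARNA11*, a small Cajal body RNA of the same strand, and in *ARID4B* the sites next to each other in an intron overlapped *MIR4753*, with 1 cluster each.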
